A study of Homo sapiens with 2 samples.

Results

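Of 7550 kept cells from a human pluripotent stem cell culture at the step of endothelial-to-hematopoietic transition (EHT), 69 cells (0.914%, exact 95% interval 0.712 to 1.16%) expressed *CPA3*, which encodes the mast cell carboxypeptidase, together with *HDC*, *MS4A2* or *TPSAB1*. The cells were selected on these same measured values and are called CPA3/HDC cells here. A kept cell was called for 1 hashtag and had at most 36000 unique molecular identifiers (UMIs) of genes, at most 6000 genes and at most 18% mitochondrial UMIs. A CPA3/HDC cell had at least 3 UMIs of *CPA3*, at least 1 UMI of *HDC*, *MS4A2*, *TPSAB1* and *TPSB2* together, fewer than 10 UMIs of *EPX* and fewer than 10 of *PF4* and *PPBP* together. No row for *TPSB2* was in the count table used, so it added nothing to the choice.

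CD34+ cells made from the iPS11 line of induced pluripotent stem cells spent 5 days in EHT medium on uncoated plates or on plates coated with VCAM1, DLL4, or DLL4+VCAM1. VCAM1 is an adhesion protein and DLL4 a notch ligand. Nonadherent cells from 3 wells of each coating condition were pooled, each pool was marked with its own hashtag antibody, and the 4 pools were combined for droplet-based single-cell RNA sequencing in 1 library. The sources used here do not say which coating each hashtag (0252, 0253, 0254 and 0255) marks, so values are given by hashtag and no coating was compared. There is 1 cell line, 1 library and no replicate of any condition, so every statement below describes this library, without a test. The intervals given are exact 95% intervals (Poisson for levels and their ratios, Clopper-Pearson for shares) that cover counting error only. A level is the summed UMIs of a gene per 1000000 UMIs of the same cells (CPM), and a gene was called higher or lower when its log2 ratio, with a pseudocount of 1 CPM, was at least 1 in size. Fold values are ratios of CPM with no pseudocount.

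Mast cells and basophils are granulocytes that arise from myeloid progenitors and store histamine with proteases in granules, which they release when the high-affinity IgE receptor is crosslinked. Both lineages depend on GATA2, and mast cells further require MITF and signals through the receptor tyrosine kinase KIT. *CPA3* and *HDC*, the histidine decarboxylase that makes histamine, are among the first genes of this program to be transcribed, whereas the receptor subunits, the full set of tryptases and chymase mark later stages. Eosinophils are a related granulocyte lineage with shared early regulators, and both basophils and eosinophils express *CLC*, which encodes galectin 10.

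GATA factors bind the hexamers AGATAA and TGATAA, and sequences upstream of the genes below are shown to let a reader see where these letters occur. The windows run from 250 bases before to 50 bases after the start of the RefSeq gene (GRCh38.p14), and both strands were searched. Capitals mark each match, written as TTATCT or TTATCA where it lies on the other strand. *CPA3* (chr3:148865046-148865345, plus strand) and *HPGDS*, the prostaglandin D synthase of hematopoietic cells (chr4:94342787-94343086, minus strand), each had 2 matches, and *MS4A2*, the beta subunit of the IgE receptor (chr11:60088414-60088713, plus strand), had 1.
CPA3: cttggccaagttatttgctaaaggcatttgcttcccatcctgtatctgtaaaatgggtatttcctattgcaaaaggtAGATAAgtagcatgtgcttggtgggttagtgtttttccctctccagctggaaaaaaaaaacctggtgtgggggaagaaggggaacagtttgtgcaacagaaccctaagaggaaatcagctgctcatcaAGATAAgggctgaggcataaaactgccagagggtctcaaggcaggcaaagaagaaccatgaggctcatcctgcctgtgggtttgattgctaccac
HPGDS: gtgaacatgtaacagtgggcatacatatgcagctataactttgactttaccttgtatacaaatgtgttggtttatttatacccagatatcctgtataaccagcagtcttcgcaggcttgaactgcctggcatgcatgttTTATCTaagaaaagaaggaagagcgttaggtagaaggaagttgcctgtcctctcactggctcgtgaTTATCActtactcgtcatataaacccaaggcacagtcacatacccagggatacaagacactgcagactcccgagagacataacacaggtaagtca
MS4A2: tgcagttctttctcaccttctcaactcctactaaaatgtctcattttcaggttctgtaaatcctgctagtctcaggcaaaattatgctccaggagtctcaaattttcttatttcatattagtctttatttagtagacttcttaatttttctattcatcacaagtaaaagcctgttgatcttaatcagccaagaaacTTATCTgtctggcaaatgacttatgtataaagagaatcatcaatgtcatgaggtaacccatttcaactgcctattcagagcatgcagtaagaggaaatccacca
Of the 24 genes that are either the 4 rule genes or the 20 with the highest ratio described below, 19 had a promoter in the table, and 9 of the 19 (47.4%) held a match, against 4537 of all 27305 promoters (16.6%). *GATA2*, *HDC*, *IL1RL1*, *MITF*, *SLC18A2* and *LMO4* had none in this window. In hg19, the build of the count table, *CPA3* spans 148583083 to 148614990 on chromosome 3 (plus strand), *GATA2* 128198270 to 128212044 on chromosome 3 (minus strand), *HDC* 50534144 to 50558162 on chromosome 15 (minus strand), *IL1RL1* 102927962 to 102968497 on chromosome 2 (plus strand), *LMO4* 87794563 to 87814606 on chromosome 1 (plus strand) and *HPGDS* 95219686 to 95264027 on chromosome 4 (minus strand). The 19 include *CPA3*, *HDC* and *MS4A2*, which chose the cells, and the 27305 promoters were not matched to the 19 for base composition. Whether the 2 shares differ for these reasons was not tested. A match is a stretch of letters and was not measured as a binding site.

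At the limit of the rule the cells formed a continuum. A total of 638 kept cells had any *CPA3* UMI and 117 had at least 3. Of these 117, 18 lacked *HDC*, *MS4A2* and *TPSAB1*, 30 had at least 10 *EPX* UMIs, which includes 1 of the 18, and 1 had at least 10 *PF4* and *PPBP* UMIs. Just inside the limit, 32 of the 69 CPA3/HDC cells had exactly 3 *CPA3* UMIs; just outside it, 91 cells met all other conditions with 2. The median was 4 *CPA3* UMIs and the highest 23. *HDC* supplied the second gene in 68 cells, *TPSAB1* was present in 14 and *MS4A2* in 3, and 1 cell qualified by *TPSAB1* without *HDC*.

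**Figure D1:**
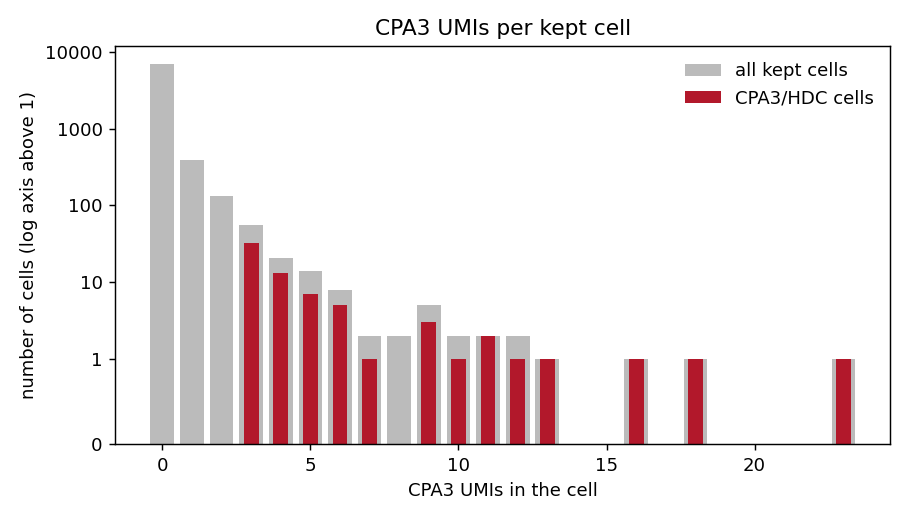
Number of cells (y axis, log scale above 1) by *CPA3* UMIs in the cell (x axis), for all 7550 kept cells in gray and the 69 CPA3/HDC cells in red. Most CPA3/HDC cells lie at 3 to 5 UMIs (52 cells), and 17 lie at 6 or more.

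The rule reads raw UMIs, so depth enters the choice. CPA3/HDC cells had a median of 21799 UMIs and 4463 genes and the other kept cells 18297 UMIs and 4193 genes. Mitochondrial shares were alike at 13.5 and 13.1%. In C1Q cells (645 cells with at least 10 UMIs of *C1QA*, *C1QB* and *C1QC*, which mark macrophages; median 13496 UMIs), 0.775% had a *CPA3* UMI and 3.88% an *HDC* UMI, against 7.61% and 30.0% of all kept cells other than CPA3/HDC cells, C1Q cells included. *HDC* transcripts were therefore spread over many cells outside the group and absent from most C1Q cells. How much free RNA added to these shares was not tested.

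Across 20518 genes with a UMI in at least 3 kept cells, 383 (1.87%) were called higher and 1045 (5.09%) lower in CPA3/HDC cells than in the other kept cells, with a median log2 ratio of all genes of -0.07. With 69 cells on 1 side, low counts carry many of these calls. Among the 5854 genes with at least 20 CPM in either group, 81 (1.38%) were called higher and 137 (2.34%) lower. The 20 genes of this class with the highest ratio outside the rule included *UTS2*, *FST*, *HPGDS*, *LIF*, *C1orf186*, *AHNAK*, *ADCYAP1*, *SLC18A2*, *MITF*, *IL1RL1*, *LMO4*, *ALDH1A1*, *SLC45A3*, *PPAP2A*, *MEIS2*, *FAM19A2*, *GATA2*, *CLC* and 1 transcript known by a clone name only, and the 20 had log2 ratios of 1.89 to 5.37. They mix regulators of the mast cell program (*GATA2*, *MITF*), a receptor of mast cells and basophils (*IL1RL1*), the amine transporter that loads granules (*SLC18A2*) and genes from other pathways. Of the 20, 14 were called higher in all 4 hashtags and 18 in at least 3, and all 20 remained called when the cell with the most UMIs of the gene was left out. In 3 of them 1 cell held over 25% of the UMIs.

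**Figure D2:**
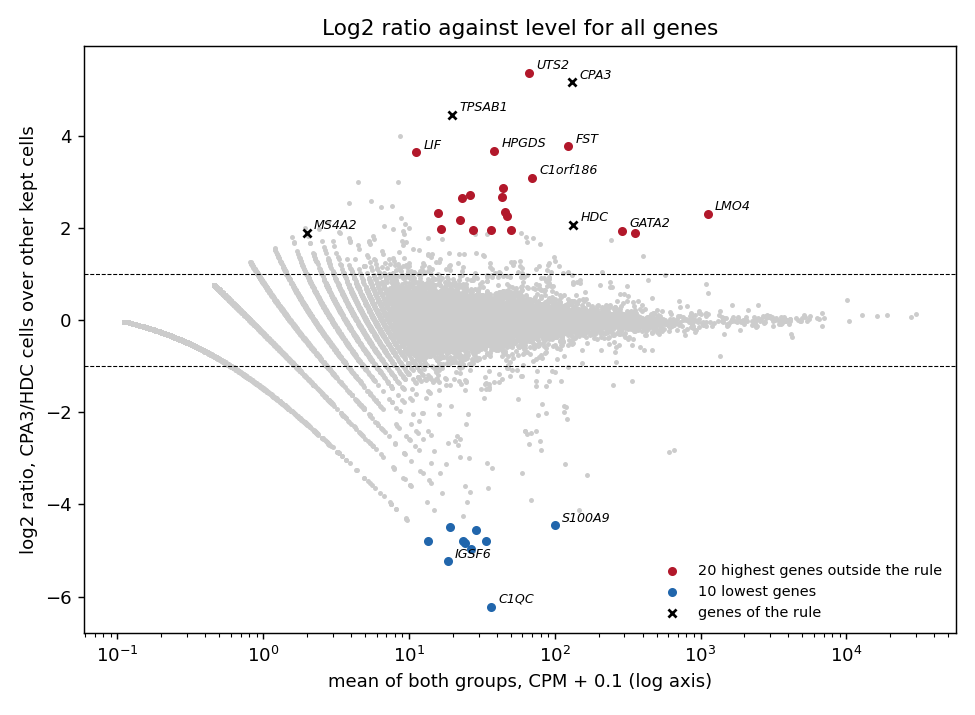
Log2 ratio of CPA3/HDC cells over the other kept cells (y axis) against the mean level of both groups (x axis, CPM, log scale) for 20518 genes, with the 20 highest genes outside the rule in red, the 10 lowest in blue and the genes of the rule as crosses. Dashed lines mark a log2 ratio of 1 in either direction, and the curved tracks at low levels are genes with a few UMIs or none in the 69 cells.

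The name of a mast or basophil primed cell was borne out in part. Of its 5 markers, *CPA3*, *HDC* and *MS4A2* were in the rule, and the remaining pair, *IL1RL1* and *GATA2*, were both called higher, with a UMI of each in 45 of the 69 cells. Together this pair summed to 536 CPM, against 133 in the other kept cells and 320 in cells with at least 10 *EPX* UMIs. The sum was thus less than 2-fold that of the latter cells, so the pair does not set the group clearly apart from them. *MS4A2* itself had 5 UMIs in 3 cells. Of the 5 tested markers of mature mast cells outside the rule 3 were higher (*SLC18A2*, *HPGDS*, *KIT*) and 1 lower, with a median log2 ratio of 1.33. *TPSD1* and *CMA1* (chymase) had no UMI, which allows up to 2.13 CPM, and *CTSG*, encoding cathepsin G, was the lower gene, at 7.12 CPM against 17.1. Of 7 basophil markers 4 were higher (*CLC*, *FCER1A*, *MS4A3*, *GRAP2*), none was lower, and the median log2 ratio was 1.10. *MS4A3*, a membrane protein of basophils and their progenitors, had 149 CPM against 64.8 with UMIs in 43 cells, while *CCR3* and *ENPP3* had no UMI. By hashtag the 7 genes summed to 1097, 1085, 128 and 178 CPM in CPA3/HDC cells against 282, 348, 144 and 137 in the other cells, and in hashtags 0254 (86.6 to 183) and 0255 (133 to 232) the interval included the value of the other cells. They summed to 739 CPM over the library and to 4989 CPM in cells with at least 10 *EPX* UMIs. *CLC*, also on the eosinophil list, made up most of the sum in CPA3/HDC cells over the library and in hashtags 0252 and 0253. In the 31 CPA3/HDC cells with no *EPX* UMI, *CLC* and *MS4A3* had log2 ratios of -0.06 and -0.00428. The group is thus described by its leading genes, and no stage of the mast or basophil lineage was assigned to it.

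Among transcription factors, 4 of the leading genes stood out. *GATA2* had 439, 534, 471 and 439 CPM in the CPA3/HDC cells of hashtags 0252, 0253, 0254 and 0255, and 105, 109, 146 and 117 CPM in the other cells of the same hashtags. All 4 values lay above all 4 values of the other cells. Over the library *GATA2* was 3.87-fold higher (3.57 to 4.18), at 459 against 119 CPM, with a UMI in 68 of 69 cells and in 10.1% of C1Q cells. *LMO4*, a LIM-domain partner of GATA complexes, had 1552, 3016, 2276 and 1387 CPM by hashtag against 322, 325, 519 and 352. It too separated in each hashtag, and over the library it was 4.96-fold higher (4.76 to 5.16), with a median of 30 UMIs per cell and a highest value of 177. *MITF*, the master regulator of mast cells and melanocytes, was 7.21-fold higher (5.41 to 9.43; 40.6 against 5.63 CPM) with UMIs in 29 cells, while the homeobox gene *MEIS2* was 4.02-fold higher (3.30 to 4.86) with UMIs in 47.

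Of the 31 transcription factors listed, 5 were called higher (these 4 and *IKZF2*, a zinc finger factor of the Ikaros family whose log2 ratio of 1.11 was below 1 under 5 alternatives), 3 lower (*GATA3*, *LMO2*, *RUNX3*) and 23 neither, with a median log2 ratio of 0.35. *GATA1*, which acts in erythroid, megakaryocytic, mast cell and eosinophil development, stood at 118 CPM against 63.2, short of the limit. *RUNX3* had 39.9 CPM against 109.8, and *LMO2*, part of the stem cell GATA2 and TAL1 complex, 12.1 against 31.5; the *LMO2* call was lost under 3 alternatives and that of *RUNX3* under 1. *SPI1*, *RUNX1*, *TAL1* and *CEBPA*, regulators shared by many myeloid cells, were all within 2-fold of the other kept cells.

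Granule genes outside the rule were split. Of 11 tested, 4 were called higher, 2 lower and 5 neither, with a median log2 ratio of 0.16. *SLC18A2*, which encodes the vesicular monoamine transporter that moves histamine into granules, had 38.3, 145, 111 and 77.1 CPM by hashtag in the CPA3/HDC cells and 10.6, 10.2, 13.1 and 10.0 CPM in the others. Each hashtag thus showed a higher level, and the library value was 6.86-fold higher (5.58 to 8.36). *SLC45A3*, a sugar transporter, was 4.42-fold higher (3.11 to 6.12). *TPSG1*, encoding gamma tryptase, was called from 2 UMIs in 1 cell. *SRGN*, the proteoglycan core that packs granule proteases, stood at 275 CPM against 399.7, and *CD63*, a granule membrane protein exposed on degranulation, at 1379 against 799.

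Lipid mediator genes leaned to the higher side. Mast cells and basophils make prostaglandin D2 and leukotriene C4 from arachidonic acid, and 3 of the 10 genes listed were called higher, none lower, with a median log2 ratio of 0.72. *HPGDS* had 69.0, 154, 51.3 and 33.5 CPM by hashtag against 2.94, 4.11, 7.08 and 5.19 in the other cells. The CPA3/HDC values exceeded the others in every hashtag and the library ratio was 15.3 (12.3 to 18.8), with UMIs in 23 of 69 cells and, in macrophages, which also use this enzyme, in 7.44% of C1Q cells. *ALOX5AP*, the helper protein of 5-lipoxygenase, was 3.22-fold higher (2.75 to 3.75), but its log2 ratio was below 1 with fewer than 3 *EPX* and fewer than 3 *PF4* and *PPBP* UMIs (0.96), with no *EPX* UMI (0.72) and in cells with 3 to 5 *CPA3* UMIs (0.94). *PTGDR2*, a prostaglandin D2 receptor of basophils and eosinophils, was 3.64-fold higher (2.21 to 5.68) on 20 UMIs. *PTGS1*, *ALOX5* and *LTC4S*, which encode the cyclooxygenase, lipoxygenase and leukotriene synthase of the pathway, had 65.5, 29.9 and 21.3 CPM against 33.7, 17.3 and 12.8 and were not called.

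Receptors for growth and alarm signals included 9 higher and 3 lower of 20 tested, with a median log2 ratio of 0.90. *IL1RL1*, the receptor of interleukin-33, had 79.8, 85.9, 68.5 and 70.4 CPM by hashtag against 10.0, 11.1, 22.0 and 15.7. No value of the other cells reached the lowest CPA3/HDC value, and the library ratio was 5.34 (4.36 to 6.48), with UMIs in 46 cells and in 1.24% of C1Q cells. *KIT* was called at 23.5 against 8.76 CPM, but from 33 UMIs in 14 cells; hashtag 0252, with the most CPA3/HDC cells, had 2 of these UMIs, and without the cell with the most UMIs the log2 ratio was 0.97. *CSF2RB*, the shared beta chain of the interleukin-3, interleukin-5 and GM-CSF receptors, was 2.43-fold higher (1.97 to 2.97; log2 ratio 0.90 and not called in cells with no *EPX* UMI), and *IL5RA* 8.45-fold (5.00 to 13.5) on 19 UMIs. *CSF2RA*, *IL4R* and *CXCR4* were lower, the last with no UMI.

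IgE receptor genes did not move as a group. Outside *MS4A2*, 1 of 15 genes was called higher and 1 lower, with a median log2 ratio of 0.03. The higher gene was *FCER1A*, the alpha subunit that binds IgE, with 7 UMIs in 6 cells. *LAT2*, an adaptor of mast cell signaling, was lower at 13.5 CPM against 31.3, a call lost under 5 alternatives. *FCER1G*, the gamma chain shared with other Fc receptors, stood at 394 against 237 CPM, and the kinases *LYN* and *SYK* at 57.6 and 44.8 against 65.0 and 50.2.

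Among genes for secreted factors, the level of *UTS2* rested on few cells. *UTS2*, encoding the vasoactive peptide urotensin 2, had the highest ratio of all (131 against 2.18 CPM), yet its 184 UMIs lay in 5 cells of 2 hashtags, 165 of them in 1 cell, and without that cell the log2 ratio was 2.21. All 5 cells had at least 9 *CPA3* UMIs and carried *FST* and *HPGDS* as well. *FST*, encoding the activin inhibitor follistatin, had 73.6, 904, 222 and 80.4 CPM by hashtag against 8.16 to 26.3 CPM in the other cells. It was higher in every hashtag with UMIs in 24 cells, but the cell with the most *UTS2* also held 160 of its 324 UMIs. *LIF*, a cytokine of the interleukin-6 family, had 21.3 CPM against 0.789 on 30 UMIs in 14 cells (log2 ratio 3.64 with the pseudocount), and *ADCYAP1*, encoding the neuropeptide PACAP, was 7.46-fold higher (5.71 to 9.61) with UMIs in 26. Of the 10 cytokine genes tested, *LIF* was the only one called higher and 5 were lower, with a median log2 ratio of -1.16 (*CSF1*, *TNF*, *CCL2*, *CCL3*, *CCL4*). *IL4* and *IL13*, made by activated mast cells and basophils, had no UMI in the 69 cells.

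The remaining leading genes were called from 17 to 40 cells each. *C1orf186*, a regulator of erythropoietin signaling now named *RHEX*, was 9.09-fold higher (7.75 to 10.6) with UMIs in 40 cells. *AHNAK*, a large scaffold protein, was 7.91-fold higher (6.46 to 9.61). *ALDH1A1*, a retinaldehyde dehydrogenase, was 4.98-fold higher (3.69 to 6.58) over the library but had 7.67 against 4.91 CPM in hashtag 0252, and its log2 ratio was -0.60 with at least 5 *CPA3* UMIs and -1.55 with a mitochondrial limit of 10%.

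**Figure D3:**
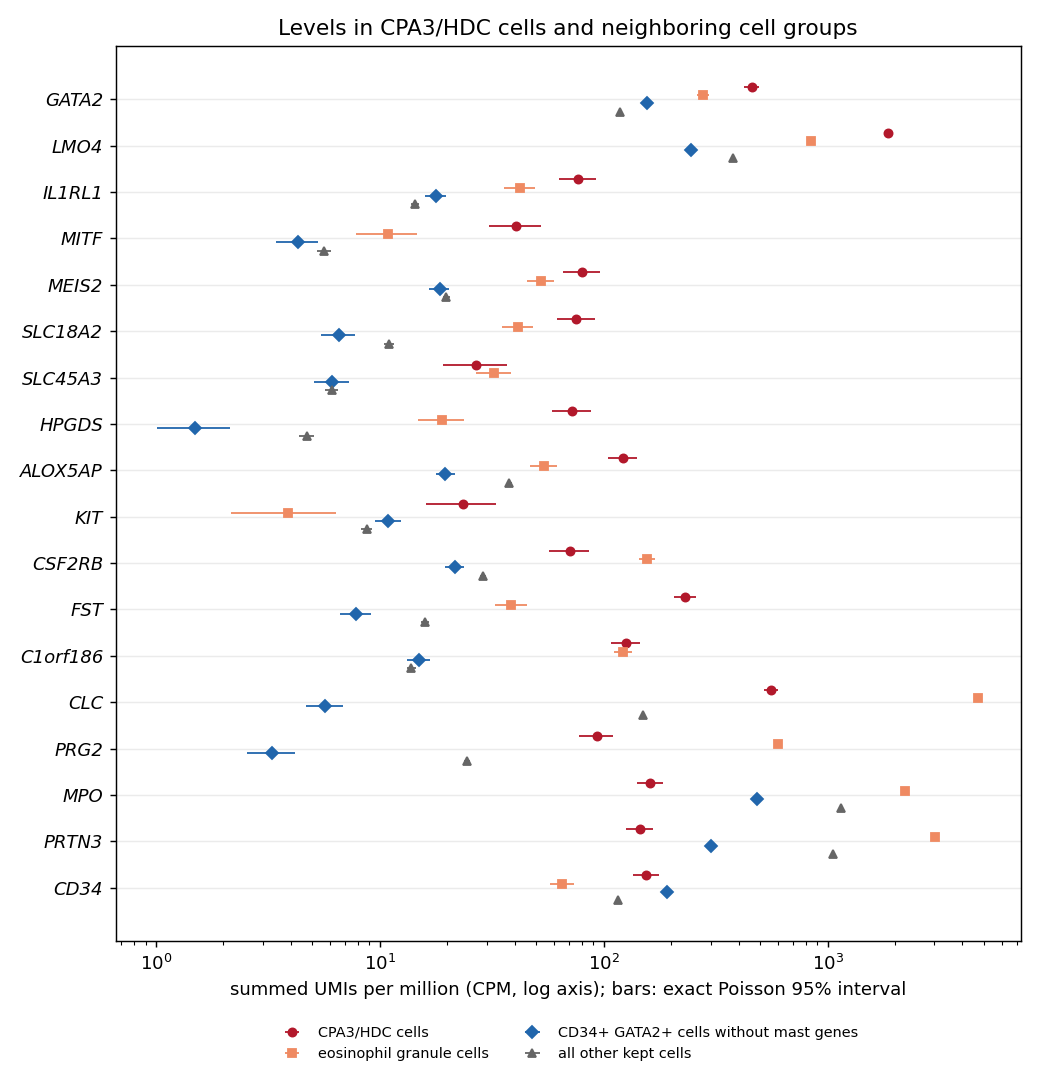
Level of 18 genes (x axis, CPM, log scale) in the 69 CPA3/HDC cells, 196 eosinophil granule cells, 961 CD34+ GATA2+ cells without mast genes and all other kept cells, with exact Poisson 95% intervals. CPA3/HDC cells are to the right of the other groups for *GATA2*, *LMO4*, *HPGDS* and *FST*, and to the left for *MPO* and *PRTN3*.

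Most neutrophil, macrophage, erythroid and stromal markers were lower over the library. Of the neutrophil markers 7 of 8 were lower (median log2 ratio -2.84), with *MPO*, the granule peroxidase, at 161 CPM against 1145 and *PRTN3*, proteinase 3, at 145 against 1061; 149 of the 204 *PRTN3* UMIs were in 1 cell. Of the macrophage markers 8 of 9 were lower (median -3.65), and *C1QC* had no UMI, at least 34.4-fold lower than its 73.4 CPM in the other cells. Of the erythroid markers 9 of 11 were lower (median -1.88), although 1 cell of hashtag 0254 held 178 of the 193 *HBG2* and 63 of the 71 *HBG1* UMIs of the group. By hashtag the neutrophil markers summed to 319, 163, 94.1 and 848 CPM against 3851, 3995, 1144 and 999.2 in the other cells, and the erythroid markers to 76.7, 127, 1442 and 57.0 against 806, 1073, 1252 and 548. The neutrophil sum of hashtag 0255 was thus near that of its other cells, and the erythroid sum of 0254 was above it. Stromal genes were lower in 5 of 6 (median -2.49), endothelial genes in 2 of 4 (median -0.67), lymphoid genes in 2 of 5 (median -0.27) and megakaryocyte genes outside the rule in 1 of 5 (*ITGB3*; median -0.73), and none of these markers was called higher. The 10 genes with the lowest ratio were *C1QC*, *IGSF6*, *HBE1*, *PRAM1*, *ACTC1*, *ASGR2*, *C1QA*, *S100A8*, *TAGLN* and *S100A9*, all of them lower in each of the 4 hashtags. *S100A9*, part of the neutrophil and monocyte protein calprotectin, was 24.6-fold lower (13.8 to 49.3), with 11 UMIs in 8 cells.

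Progenitor and proliferation genes were close to the level of the other cells. Of 8 progenitor markers 1 was lower (*SPINK2*, 24.9 against 61.8 CPM, not called under 2 alternatives) and none higher, with a median log2 ratio of 0.14. *CD34* had UMIs in 48 of 69 cells and stood at 154 CPM against 116. Of 13 cell cycle genes (median 0.22) 1 was called, the inhibitor *CDKN1A*, which was lower at 4.27 CPM (log2 ratio -1.69). *MKI67* and *TOP2A*, expressed in dividing cells, had 189 and 389 CPM against 161 and 295.

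Eosinophil genes were read outside *EPX*, which chose the eosinophil granule cells and was limited in CPA3/HDC cells. The rule allowed up to 9 *EPX* UMIs, and 38 of the 69 cells had 1 or more. Of the 6 eosinophil markers outside the rule 3 were higher (*CLC*, *PRG2*, *IL5RA*) and 2 lower (*RNASE2*, *RNASE3*), with a median log2 ratio of 0.65. These 6 genes summed to 732 CPM in CPA3/HDC cells, 367 in the other kept cells, 53.9 in CD34+ GATA2+ cells without mast genes and 7799 in eosinophil granule cells. None was at 0 in CPA3/HDC cells, and *CLC* made up most of the 732 CPM. As *CLC* is also on the basophil list, the basophil and eosinophil sums largely count the same UMIs there. By hashtag, the 6 genes outside the rule summed to 1077, 1103, 137 and 171 CPM in CPA3/HDC cells against 445, 566, 223 and 165 in the others. Hashtags 0252 and 0253 thus stood above their other cells, 0254 below, and in 0255 the interval (127 to 225 CPM) included the other value.

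*CLC* showed this split most plainly, with 867, 895, 8.56 and 70.4 CPM by hashtag against 157, 240, 90.9 and 91.9. It was absent from 46 of the 69 cells, present at 1 to 9 UMIs in 11 and at 10 or more in 12. There were 12.3 UMIs of *CLC* for each UMI of *PRG3*, which encodes an eosinophil granule protein, in CPA3/HDC cells and 2.27 in eosinophil granule cells. For *PRG2*, encoding the major basic protein, the ratios were 6 and 7.85. An *EPX* UMI was found in 7.29% of C1Q cells. Whether free eosinophil RNA or a second cell in the droplet added to these values was not tested. The Scrublet program called 99 barcodes with 1 hashtag (1.17%) doublets, none of them among the 69 cells.

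Without the 38 cells that had an *EPX* UMI, 31 cells remained, and in these *CLC* and *PRG2* stood at log2 ratios of -0.06 and -1.09 to the other kept cells. *KIT* and *UTS2* were no longer higher (log2 ratios of -0.57 and -0.88). *GATA2*, *LMO4*, *IL1RL1* and *HPGDS* stood at 369, 1003, 54.1 and 42.7 CPM in the 31 cells.

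Compared with neighbors in the lineage tree, CPA3/HDC cells shared part of their genes with eosinophil granule cells (196 cells with at least 10 *EPX* UMIs). A total of 1080 genes (5.26%) were called higher in CPA3/HDC cells than in these, and among the 20 leading genes 11 were higher and *CLC* was lower. *LMO4* was 2.21-fold higher (2.10 to 2.33), *HPGDS* 3.80-fold (2.79 to 5.21), *MITF* 3.73-fold (2.46 to 5.70) and *KIT* 6.05-fold (3.20 to 12.0). *C1orf186*, *PPAP2A* and *SLC45A3* had ratios of 1.03 (0.86 to 1.23), 1.13 (0.86 to 1.47) and 0.84 (0.57 to 1.21), with intervals that include 1. *CSF2RB* and *IL5RA* were lower than in eosinophil granule cells, at 70.4 against 157 and 13.5 against 37.8 CPM.

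The second neighbors were 961 cells with a UMI of *CD34* and of *GATA2* and none of *CPA3*, *HDC*, *MS4A2* or *TPSAB1*. Against these, 474 genes (2.31%) were higher in CPA3/HDC cells, and all 20 leading genes were among them. *HPGDS* was 47.9-fold higher (31.6 to 74.6), *SLC18A2* 11.5-fold (8.83 to 15.0), *MITF* 9.43-fold (6.63 to 13.3), *LMO4* 7.59-fold (7.24 to 7.97) and *IL1RL1* 4.33-fold (3.46 to 5.39). *GATA2*, which chose the neighbors, was 2.93-fold higher (2.69 to 3.19). *CD34*, which also chose the neighbors, was at 154 CPM in CPA3/HDC cells and 192 in the neighbors, and *CYTL1*, a secreted factor of CD34+ cells, at 147 and 225. *HBG1*, *HBG2* and *HBZ* stood above the neighbors (log2 ratios of 0.63, 0.74 and 1.22), and for *HBG1* and *HBG2* most UMIs were in the 1 cell of hashtag 0254 named above.

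Among themselves the 69 cells differed with the amount of *CPA3*. The 52 cells with 3 to 5 UMIs had 404 CPM of *GATA2*, 26.2 of *HPGDS*, 73.4 of *ALOX5AP* and 282 of *CLC*, whereas the 17 cells with 6 or more had 699, 273, 334 and 1779. For *CLC*, 134 of the 323 UMIs of the first class lay in 1 cell, and without the top cell of each class the levels were 167 and 1287 CPM. Genes of eosinophils were also higher in the second class, with *PRG2* at 72.5 and 184 CPM, *IL5RA* at 6.99 and 42.3 and *EPX*, which the rule limits, at 62.9 and 199.8. *MITF* stood the other way, at 45.4 CPM (33.9 to 59.6) at 3 to 5 UMIs and 19.2 (6.24 to 44.8) on 5 UMIs at 6 or more, with overlapping intervals. *MPO* stood at 181 CPM in the first class and 73.0 in the second, and at 127 and 56.2 without the cell of each class with the most *MPO*. *PRTN3* stood at 166 and 53.8 CPM, but 149 of its UMIs in the first class were in 1 cell, and without the top cell of each class the values were 36.5 and 38.9. *FST* stood at 93.5 and 834 CPM and *UTS2* at 0 and 707, and without the top cell of each class *FST* stood at 66.8 and 239 and *UTS2* at 0 and 79.7. The cells with 6 or more *CPA3* UMIs were the shallower ones, with a median of 11860 UMIs against 22912. By hashtag, 8 of these 17 were in 0252, 6 in 0253, 2 in 0254 and 1 in 0255. The classes thus differ in hashtag too, and which of these goes with the levels was not tested. *CD34* and *MKI67* had overlapping intervals in both classes. *TOP2A* did not, with 421 CPM (384 to 460) at 3 to 5 UMIs and 246 (189 to 314) at 6 or more, and 386 and 189 without the top cell of each class.

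**Figure D4:**
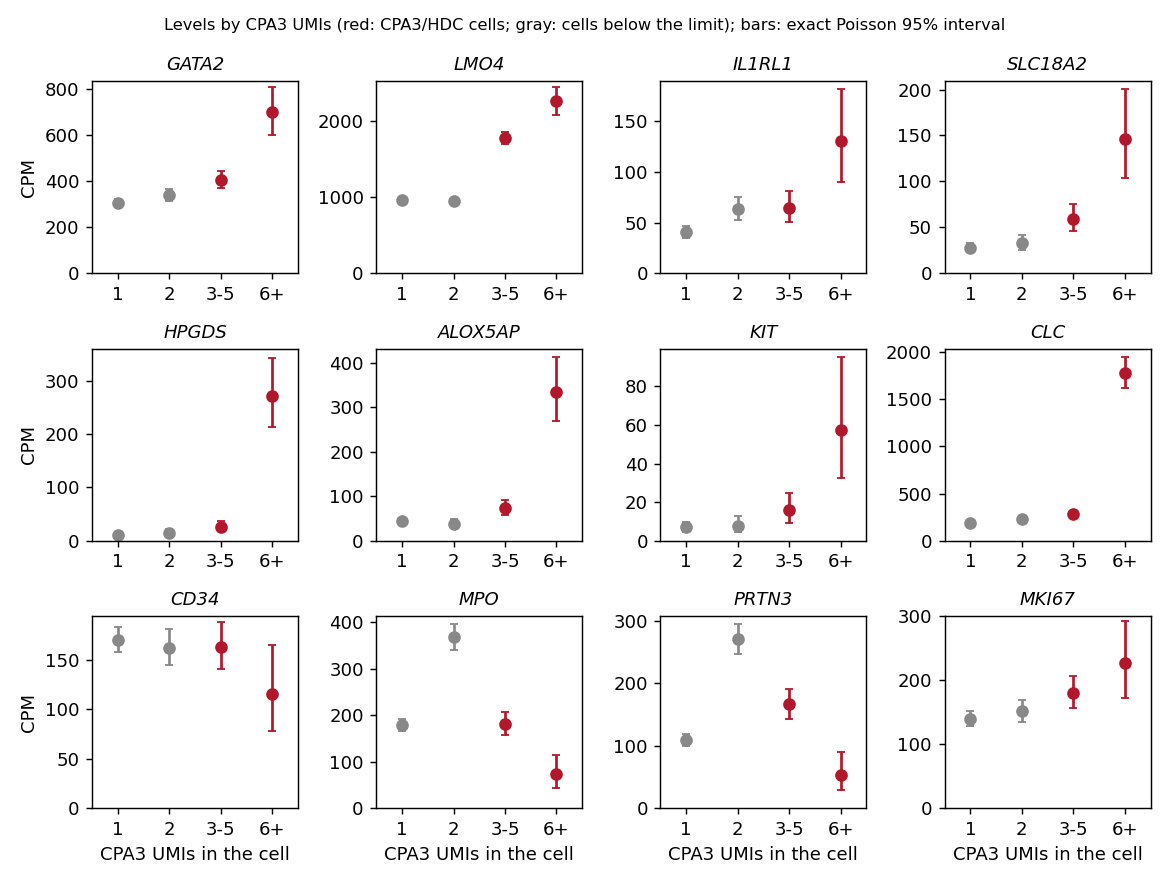
Level (y axis, CPM from 0, exact Poisson 95% interval) of 12 genes in cells with 1 (208 cells), 2 (91), 3 to 5 (52) and 6 or more (17) *CPA3* UMIs, with CPA3/HDC cells in red and cells that met the other conditions but had too few *CPA3* UMIs in gray. *HPGDS*, *ALOX5AP* and *CLC* stand far above the other classes at 6 or more UMIs, and *LMO4* already at 3 to 5.

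Cells below the *CPA3* limit differed by gene. The 91 cells with 2 *CPA3* UMIs had 337 CPM of *GATA2*, 948 of *LMO4*, 63.0 of *IL1RL1* and 14.8 of *HPGDS*, and the 208 cells with 1 had 307, 962, 40.3 and 9.74. *IL1RL1* at 2 UMIs was thus close to the 3 to 5 class (64.6 CPM), while *LMO4* was below it (1778 CPM). *HPGDS*, at 14.8 CPM (9.94 to 21.3) against 26.2 (17.7 to 37.4) at 3 to 5 UMIs, had overlapping intervals. *MPO* stood at 367 CPM at 2 *CPA3* UMIs and 179 at 1, and *PRTN3* at 270 and 108, but at 2 UMIs 1 cell held 402 of the 717 *MPO* UMIs and 1 cell 396 of the 527 *PRTN3* UMIs. Without the top cell of each class *MPO* was at 163 and 145 CPM and *PRTN3* at 67.9 and 63.5. *FST* stood at 27.6 and 36.4 CPM at 2 and 1 UMIs.

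The 14 cells with tryptase (*TPSAB1*) were set apart further from the 55 without. *LMO4* was at 4889 CPM in them and 1396 in the others, *HPGDS* at 269 and 41.1, *SLC18A2* at 211 and 54.3, *ALOX5AP* at 342 and 87.2 and *KIT* at 126 and 7.40. *CD34* was at 47.4 CPM in the tryptase cells and 171 in the others, and *MPO* at 36.9 and 180. *CYTL1*, also listed as a progenitor gene, was at 111 (68.5 to 169) and 152 (131 to 176) CPM, with overlapping intervals. *CLC* was found on either side, since 7 of the 14 tryptase cells had none and 5 had at least 10 UMIs. Tryptase cells had a median of 13019 UMIs and the others 23239.

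The 12 cells with at least 10 *CLC* UMIs also had high *HPGDS* (312 CPM), *ALOX5AP* (556) and *IL5RA* (97.8) and low *CD34* (36.7). In the 46 cells with no *CLC*, *HPGDS* was at 34.3, *ALOX5AP* at 63.6, *IL5RA* at 1.96 and *CD34* at 174 CPM. Eosinophil granule genes went with *CLC*, since *PRG2* was at 397 CPM in the first set and 44.1 in the second, *PRG3* at 202 and 17.6 and *EPX* at 214 and 68.5. *KIT* had 1 UMI in the first set, 6.11 CPM (0.155 to 34.1), against 26.4 (17.4 to 38.5) in the second, and the intervals overlap. *GATA2* was at 893 CPM in the first set and 392 in the second, and the tryptase gene was at 190 and 17.6, with 19 of the 31 UMIs of the first set in 1 cell and 79.0 and 11.9 CPM without the top cell of each set. The sets overlap in depth but the first was shallower, with medians of 11428 and 22688 UMIs. Most of the 12 cells were in hashtags 0252 and 0253, so the split by *CLC* was in part a split by hashtag.

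By hashtag, the share of CPA3/HDC cells was 1.40% (0.950 to 2.00%; 30 of 2136) in 0252, 0.651% (0.347 to 1.11%; 13 of 1996) in 0253, 0.650% (0.336 to 1.13%; 12 of 1847) in 0254 and 0.891% (0.488 to 1.49%; 14 of 1571) in 0255. Hashtag 0252 held 43.5% of the group, and its interval overlapped those of the other 3. Set against the other 3 hashtags together (39 of 5414 cells, 0.720%), the share in 0252 was 1.95-fold (1.17 to 3.22) higher, a ratio given for the hashtag with the highest value and with no replicate behind it. With a looser form of the rule applied to cells thinned to 5000 UMIs, the shares were 1.61, 1.21, 1.41 and 1.29% in the same order of hashtags, with overlapping intervals. These shares describe 104 cells, in which the log2 ratio of *CLC* was 3.86, against 1.89 in the 69. Thinning can only lower counts, and of the 117 kept cells with at least 3 *CPA3* UMIs 18 lacked a second gene. A limit of 3 *CPA3* UMIs thus cannot give 104 cells, so the *CPA3* limit was lower there. Thinning also loosens the limit on *EPX*, and which of these changes moved the shares was not tested. Of the 17 cells with at least 6 *CPA3* UMIs, 8 were in hashtag 0252, 6 in 0253, 2 in 0254 and 1 in 0255. *CPA3* UMIs of any number were found in 9.27, 8.07, 9.04 and 7.13% of the kept cells of these hashtags.

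**Figure D5:**
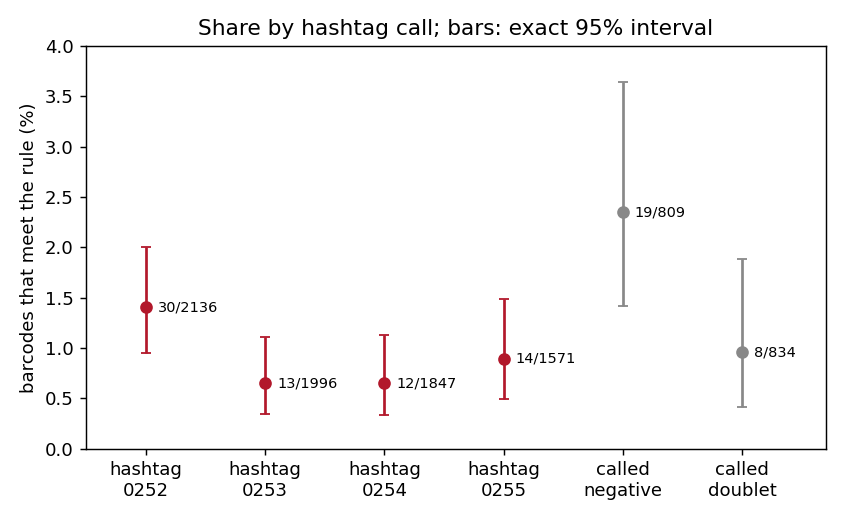
Share of barcodes that met the rule (y axis, percent) by hashtag call, with exact 95% intervals and the number of cells over the number within the limits on UMIs, genes and mitochondrial share. The 4 hashtags lie between 0.650 and 1.40%, and barcodes called negative for any hashtag, which are not kept cells, lie at 2.35%.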

How the data were processed

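Nonadherent cells of day 5 were profiled as 1 RNA library with 1 hashtag library (2 samples, 10836 barcodes). The deposited table holds UMI counts of 32738 genes plus 4 hashtags, which the authors made with Cell Ranger 6.0.1 on hg19 per the labels, with no normalization, and a call of each barcode as 1 hashtag, doublet or negative, which was used as deposited. Of 8488 barcodes called for 1 hashtag, 7550 were kept. UMIs were summed over cells and scaled per 1000000, and hashtag UMIs were left out of totals. Ratios were computed across all genes with a UMI in at least 3 kept cells, and no p-value was computed. CPA3/HDC cells held 1405305 UMIs, so 3 counts, taken as the floor for a gene with none, are 2.13 CPM. The 4 hashtags held 28522216 to 40416478 UMIs each in kept cells.

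The member cells and the gene lists (188 genes, 186 with a row) were chosen with earlier results of these data known. Named with values are listed genes with at least 20 CPM in the member cells or a log2 ratio of at least 1 in size, and the 20 highest and 10 lowest genes outside the rule with at least 20 CPM in the higher group, of which 1 is not reported here. The listed genes *TPSD1*, *CMA1*, *CCR3*, *ENPP3*, *IL4* and *IL13*, all at 0, were named after their values were seen. Cells split by *CLC* or *TPSAB1* were chosen after their values were seen. Alternatives changed the limits of the rule, the reference cells, the weight of each cell, the pseudocount and the low-count filter. Those with no *EPX* UMI, without the top cell of a gene and with 3 to 5 *CPA3* UMIs were added after seeing the data. Scrublet, run in scanpy with an expected doublet rate of 6%, called 99 barcodes (1.17%) and no member cell. Tested on simulated data for the comparison with other kept cells (5689 genes), the ranking put 200 of 200 genes changed by a fold of 4 highest, with a median fold of 3.64. The simulation drew Poisson counts for the pooled groups, with no variation between cells and no choice of cells by expression. It therefore checks the computation and does not measure how reliable the ranking is in these cells. Python 3.11.15, matplotlib 3.10.9, scanpy 1.11.5, pandas 2.3.3, scipy 1.17.1 and numpy 2.4.6 were used. Promoters are RefSeq sequences of GRCh38.p14, whereas the files use hg19, so no position of one build was set against the other.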

Additional observations from a re-analysis of the deposited data

Results flagged for a closer look

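Barcodes outside the kept cells also met the rule. Among 809 barcodes called negative for any hashtag and within the same limits, 19 (2.35%, exact 95% interval 1.42 to 3.64%) did so, the highest share of any call; hashtag 0252 had 1.40% and the other hashtags less. These 19 barcodes had 248.6 CPM of *CPA3*, 560 of *GATA2*, 1657 of *LMO4* and 108 of *IL1RL1*, with no UMI of *TPSAB1* or *UTS2* and 27.0 CPM of *HPGDS*. Of the 88 barcodes meeting the rule that were called for 1 hashtag or negative, 21.6% (13.5 to 31.6%) were negative, against 9.55% (8.93 to 10.2%) of the other barcodes. Their median of hashtag UMIs was 986 against 1205. Among 834 barcodes called doublets, 8 (0.959%, 0.415 to 1.88%) met the rule. The causes were not tested.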

How the results depend on the processing

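Shares and counts of calls moved with the limits of the rule. A mitochondrial limit of 10% left 4 of 736 cells (0.543%), with 0 in hashtags 0254 and 0255, and called 2107 genes higher and 8296 lower. At least 5 *CPA3* UMIs gave 0.318% over the library, 0.515% in hashtag 0252, 0.162% in 0254 and 0.191% in 0255, with 1213 genes higher and 2328 lower. Fewer than 3 *EPX* and *PF4* and *PPBP* UMIs gave 0.675%. A looser form of the rule, with a lower limit on *CPA3*, on cells thinned to 5000 UMIs gave 1.39% over the library. By hashtag it gave 1.61, 1.21, 1.41 and 1.29%. No *EPX* UMI gave 0.411% over the library and 0.749, 0.251, 0.271 and 0.318% by hashtag, with 657 genes higher and 1726 lower. Equal weight of cells called 629 genes higher, a pseudocount of 10 CPM called 52 higher and 137 lower, and a minimum of 5 CPM called 189 higher and 454 lower. Without hashtag 0252, 736 were higher and 1583 lower.

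Log2 ratios changed sign for *ALDH1A1* (-1.55), *KIT* (-3.44), *LIF* (-0.47) and *LAT2* (0.86) under the 10% limit, for *ALDH1A1* (-0.60), *HBD* (0.31) and *HBG2* (0.25) with at least 5 *CPA3* UMIs, and for *CLC* (-0.0611), *KIT* (-0.57), *MS4A3* (-0.00428), *PRG2* (-1.09) and *UTS2* (-0.88) with no *EPX* UMI. They did so for *CSF2RA* (0.0892), *HBA1* (0.41), *HBG1* (0.63), *HBG2* (0.74) and *HBZ* (1.22) against CD34+ GATA2+ cells, and for *UTS2* (-1.67) in cells with 3 to 5 *CPA3* UMIs. *CLC* also lost its call without hashtag 0252 (0.99) and with fewer than 3 *EPX* and *PF4* and *PPBP* UMIs (0.94), *MS4A3* under the same settings (0.97 and 0.89), and *KIT* without hashtag 0253 (0.98), with fewer than 3 *EPX* and *PF4* and *PPBP* UMIs (0.98), with a pseudocount of 10 CPM (0.84) and without the cell holding most of its UMIs (0.97). In cells with 3 to 5 *CPA3* UMIs *CLC* (0.90), *MS4A3* (0.64) and *KIT* (0.78) were not called. *LAT2* was not called with at least 5 *CPA3* UMIs (-0.68), against CD34+ GATA2+ cells (-0.38), with equal weight of cells (-0.77) and with a pseudocount of 10 CPM (-0.81). *LMO2* (-0.47) and *RUNX3* (-0.12) lost their calls under the 10% limit, and *LMO2* also with no *EPX* UMI (-0.63) and with a pseudocount of 10 CPM (-0.91). *SPINK2* was not called with at least 5 *CPA3* UMIs (-0.97) and without hashtag 0255 (-0.84), and *CSF2RB* with no *EPX* UMI (0.90). *RNASE2* was not called against CD34+ GATA2+ cells (-0.92). *HBG2* lost its call with no *EPX* UMI (-0.50) and without hashtag 0252 (-0.67), and *HBG1* with no *EPX* UMI (-0.99) and with at least 5 *CPA3* UMIs (-0.30). The causes were not tested. The 10 lowest genes stayed called under all 18 alternatives run. Of the 20 highest, 18 to 20 stayed called under each single alternative, and *ALDH1A1*, *LIF*, *CLC* and *UTS2* each lost the call under some. Not every alternative could change these calls. The minimum of 5 CPM left the ratios as they were, and Scrublet removed no CPA3/HDC cell. Leaving out the top cell can only take UMIs away from a gene already called lower. No paired analysis was possible because the library has no replicates. In 69 cells a gene with no UMI can still reach 2.13 CPM, and 1 cell can decide the value of a rare gene, as for *UTS2*, *FST*, *HBG2* and *PRTN3*.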
